A study of Mus musculus with 48 samples.

Results

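The 10 genes described here mark endothelial cells or their sprouting: Pecam1, Cdh5, Kdr, Flt1, Tek, Tie1, Vwf, Plvap, Esm1 and Angpt2. They were picked by name, and all 10 were found among the 18782 genes counted in the thoracic aorta of 48 mice and passed the filter on low counts. Every mouse was a wild-type C57BL/6J animal and gave 1 library. Control mice of each sex (MaCon, n = 10; FeCon, n = 10) drank normal water. The other mice drank water with 0.4% β-aminopropionitrile (BAPN), an inhibitor of the lysyl oxidases that cross-link elastin and collagen, for 28 days from 3 weeks of age. Treated mice were sorted at the end by what was found in the vessel, into those without a detectable lesion (MaNonAD, n = 4; FeNonAD, n = 8) and those with aortic dissection or aneurysm (MaAAD, n = 7; FeAAD, n = 9). The treated groups therefore held survivors only, and lesion status was an outcome and not an assigned treatment. The ascending aorta, arch and proximal descending aorta were taken after saline perfusion, with all layers of the wall together. The methods of the study describe the RNA as coming from lesioned segments and do not say how control and unlesioned vessels were sampled, so a difference in the stretch of wall taken and lesion status cannot be told apart.

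Endothelial cells line the vessel lumen and hold to each other through junction proteins such as VE-cadherin (Cdh5) and CD31 (Pecam1). Vascular endothelial growth factors (VEGFs) act on them through the receptors Kdr and Flt1, and angiopoietins act through the receptor Tek, whose partner receptor is Tie1. When a quiescent endothelium is activated to sprout, tip cells lead the new branch, and Esm1, a secreted proteoglycan, and Angpt2, a ligand of Tek stored in endothelial granules, are commonly used to mark that state. Vwf encodes von Willebrand factor, which is stored in the same granules and tethers platelets, and Plvap encodes the diaphragm protein of fenestrae and caveolae, which is scarce in the lining of large arteries and abundant in small permeable vessels such as those of the adventitia.

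Promoter sequences are shown for Esm1, the gene with the largest difference between groups, and for Tie1 and Tek, the receptor pair of which Tie1 passed the test in AAD aortas and Tek did not. Each covers 250 bases before and 50 bases after the start of the gene in the RefSeq annotation of GRCm38.p6, and capitals mark 1 form of the ETS motif, GGAAG or its complement CTTCC. The counts themselves were made on another build, GRCm39.
Esm1 (chr13:113209409-113209708, + strand): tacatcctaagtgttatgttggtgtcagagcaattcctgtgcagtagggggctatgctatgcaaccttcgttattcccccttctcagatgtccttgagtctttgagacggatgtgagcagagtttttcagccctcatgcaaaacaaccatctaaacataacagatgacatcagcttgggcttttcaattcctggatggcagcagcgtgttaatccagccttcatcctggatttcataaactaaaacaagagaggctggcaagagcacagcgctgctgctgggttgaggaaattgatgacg
Tie1 (chr4:118489800-118490099, - strand): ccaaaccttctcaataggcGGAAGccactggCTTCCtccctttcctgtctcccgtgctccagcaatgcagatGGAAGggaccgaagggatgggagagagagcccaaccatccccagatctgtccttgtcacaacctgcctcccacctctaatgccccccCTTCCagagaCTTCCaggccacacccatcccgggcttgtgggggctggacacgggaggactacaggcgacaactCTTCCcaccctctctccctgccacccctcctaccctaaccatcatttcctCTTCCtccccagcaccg
Tek (chr4:94739039-94739338, + strand): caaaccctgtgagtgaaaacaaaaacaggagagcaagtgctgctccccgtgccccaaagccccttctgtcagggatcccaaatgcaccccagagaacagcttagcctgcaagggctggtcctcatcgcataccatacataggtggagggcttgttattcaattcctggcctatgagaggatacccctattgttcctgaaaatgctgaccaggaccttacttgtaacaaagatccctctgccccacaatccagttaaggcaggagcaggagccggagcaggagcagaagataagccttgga

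RefSeq promoters were matched for 5 of the 10 genes. ETS factors are major regulators of endothelial genes, and GGAAG, searched on both strands, was in 71.4% of all 32851 promoters of this length. It occurred 7 times in the promoter of Tie1, 3 times in that of Flt1 and 1 time in that of Kdr, and 0 times in those of Tek and Esm1. The shorter ETS core GGAA or TTCC was not counted, and it can be read in all 3 sequences shown. The GATA motif GATAA, present in 25.4% of promoters, and the SOX motif ACAAAG, present in 18.7%, each occurred 1 time, both in the promoter of Tek. The hypoxia response core ACGTG, present in 19.6% of promoters, was in none of the 5 windows. These are matches of letters in a short window and not binding sites.

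Library totals ranged from 13548003 to 17281262 counts, with a median of 15681333, and no libraries were identical. Levels below are counts scaled to a common library size after TMM normalisation (CPM), and changes are log2 fold changes with an approximate standard error (SE) from edgeR. A gene passed at a Benjamini-Hochberg adjusted p under 0.05 over the 14431 genes tested. A differentially expressed gene (DEG) by the rule of the study had to change by 1 or more on the log2 scale as well. Markers of the labelled tissue were present: 8 smooth muscle genes summed to between 11901 and 60621 CPM in every library, whereas 7 heart muscle genes summed to between 15.7 and 595. The wall also changed around the endothelium, with 23.8% of all tested genes higher and 20.6% lower in FeAAD and 18.9% higher and 16.1% lower in MaAAD, both against controls. In AAD aortas of both sexes all 8 macrophage genes and all 8 proliferation genes were higher than in controls, and all 8 smooth muscle genes were lower. Platelet genes were higher for 5 of 7 in FeAAD and 3 of 7 in MaAAD. In FeNonAD against FeCon (14.5% of all genes passed), 7 of 8 proliferation genes were higher, 2 of 8 smooth muscle and 1 of 7 platelet genes were lower, and 0 of 8 macrophage genes passed. In FeAAD against FeNonAD (18.2% of all genes passed), all 8 macrophage, all 8 proliferation, all 5 red cell and 6 of 7 platelet genes were higher. There 6 of 8 smooth muscle genes were lower. In FeAAD against FeCon all 5 red cell genes tested were higher (median log2 fold change 3.62, with FeAAD replicate 2 highest at 26920 CPM summed), and 4 of 7 heart muscle genes and 3 of 5 mesothelial genes were lower, while the medians of these lists in MaAAD were 0.90, 0.34 and 0.23. FeAAD replicates 5 and 9 stood apart, as the lowest of their group for Pecam1, Tek, Tie1 and Vwf. Leaving them out thus raises the FeAAD level of these genes by construction and is no independent check of them. FeAAD replicate 5 had the highest summed macrophage, platelet and proliferation genes of its group (5773, 721 and 512 CPM) and the lowest summed smooth muscle genes (14074 CPM). The part of this mixture in the changes below was not tested, and in whole tissue fewer cells of a type and less RNA per cell cannot be told apart.

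In control aortas the 10 genes spanned a wide range of levels per transcript length. Pecam1 was the most abundant, with 104 ± 27.2 (SD, n = 10) CPM per kilobase in MaCon and 129 ± 26.1 (n = 10) in FeCon. Vwf (18.2 ± 4.29 and 22.3 ± 6.08), Plvap (17.2 ± 5.09 and 16.3 ± 5.09), Cdh5 (15.5 ± 3.54 and 14.3 ± 2.51), Tie1 (14.5 ± 1.74 and 12.8 ± 1.76) and Angpt2 (13.0 ± 2.48 and 16.0 ± 6.05) came next, and the ranges of these 5 neighbours in order overlapped. Tek followed with 8.74 ± 2.19 and 7.71 ± 1.44, with a higher mean than Flt1 (4.87 ± 1.31 and 6.27 ± 1.25) and Kdr (4.13 ± 2.39 and 5.06 ± 2.03), and the ranges of these 3 receptors overlapped. Esm1 was by far the lowest, at 0.521 ± 0.254 and 0.525 ± 0.216. In AAD aortas the order shifted, since Esm1 reached 11.1 ± 6.76 (n = 7) in males and 11.5 ± 7.80 (n = 9) in females, above Tek, Flt1 and Kdr in mean level. Lengths were those of the longest annotated transcript, so that the scale is approximate where other isoforms prevail.

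**Figure D1:**
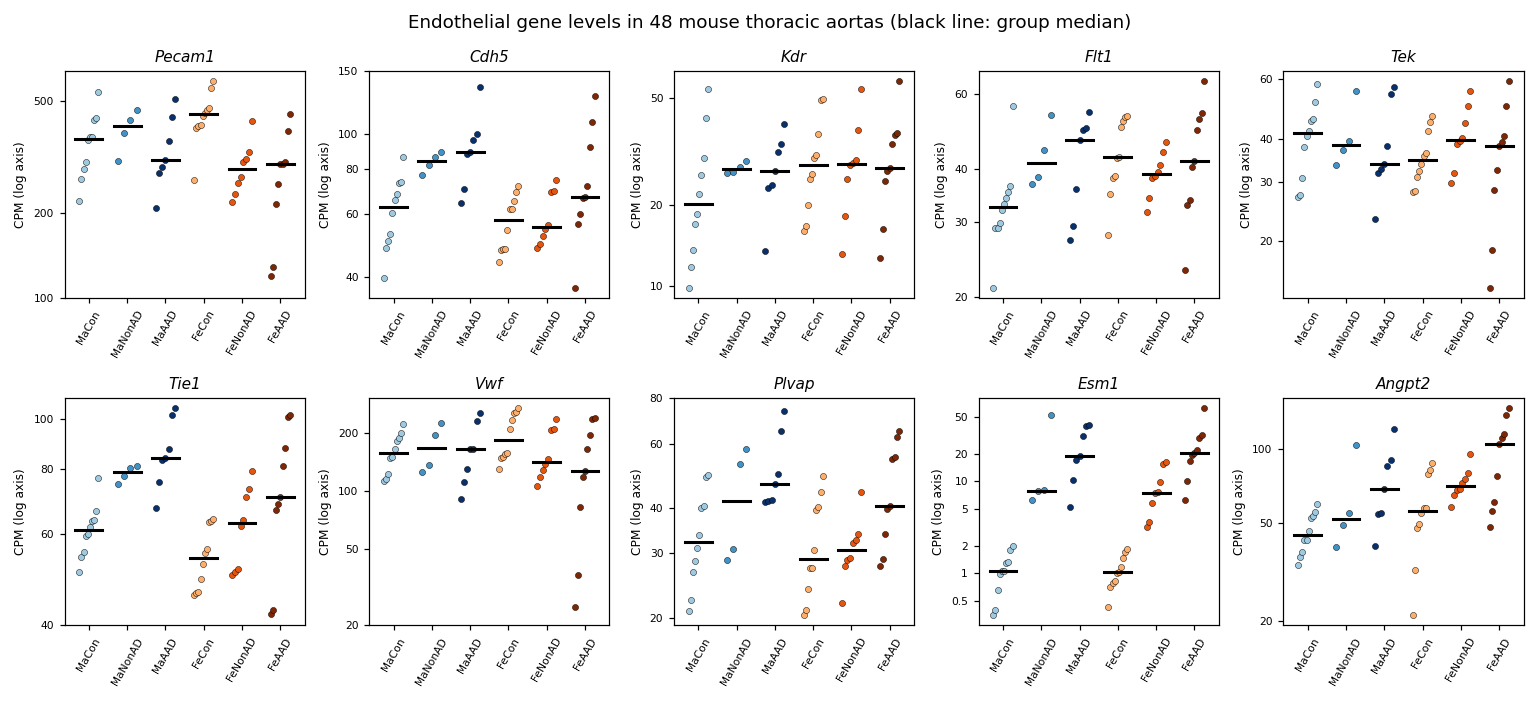
Level of each of the 10 genes in each of the 48 libraries, as CPM on a log axis, by group; points are libraries and black lines are group medians. All treated libraries lie above all controls for Esm1, whereas treated and control libraries overlap for the other 9 genes, and FeAAD replicates 5 and 9 are the lowest points for Pecam1 and Vwf.

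In AAD aortas, 6 of the 10 genes passed in females and 5 in males. In FeAAD against FeCon, 5 were higher (Cdh5, Tie1, Plvap, Esm1 and Angpt2), where 23.8% of all tested genes were higher, and 1 was lower (Pecam1), where 20.6% were lower. In MaAAD against MaCon the 5 higher genes were the same as in females, against 18.9% of all genes higher, and 0 were lower, against 16.1%. The median log2 fold change of the 10 genes was 0.22 in females and 0.41 in males, beside 0.00 and -0.03 over all genes. Only Esm1 met the DEG rule, in FeAAD (12.7% of all genes) and in MaAAD (11.4%). Without a lesion fewer genes passed. In FeNonAD against FeCon, 2 of 10 passed, Esm1 higher and Pecam1 lower (14.5% of all genes passed, 2.75% as DEGs), and in MaNonAD against MaCon 1 of 10 passed, Esm1 (0.624% passed, 0.478% as DEGs). Between lesioned and unlesioned treated aortas, Esm1 alone passed in females (18.2% of all genes, 7.04% as DEGs). None of the 10 passed in males by edgeR (0.409% of all genes, 0.353% as DEGs), by DESeq2 or at an unadjusted p under 0.05, where 18.7% of all genes were.

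**Figure D2:**
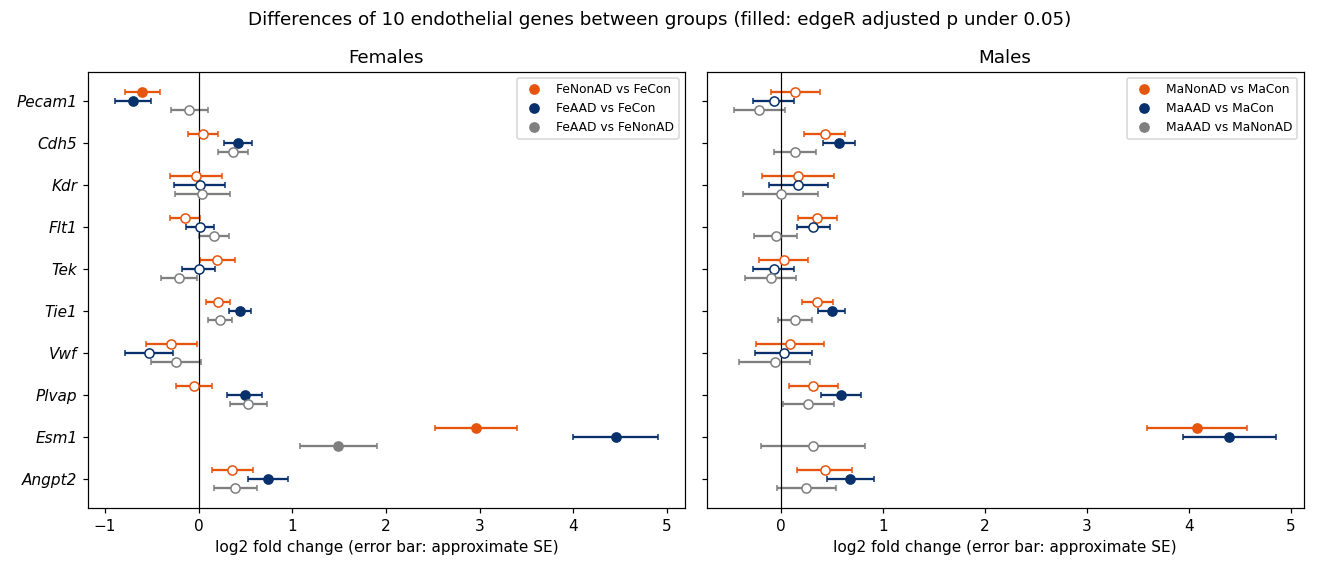
Log2 fold change of each gene in 3 comparisons among females (left) and 3 among males (right), with approximate SE as bars; filled points passed at an edgeR adjusted p under 0.05. Esm1 stands between 2.96 and 4.45 against controls, at 1.49 in FeAAD against FeNonAD, and the filled points of the other genes lie between -0.70 and 0.74.

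Esm1 was nearly silent in control aortas and rose in every treated group. Its level ran from 0.352 to 1.96 CPM in MaCon (median 1.07, 5 to 30 counts) and from 0.425 to 1.83 CPM in FeCon (median 1.03, 6 to 26 counts). The 4 MaNonAD libraries measured 52.6, 7.83, 8.02 and 6.28 CPM, and MaAAD ran from 5.30 through a median of 18.9 to 40.9 CPM. FeNonAD ran from 3.22 through 7.52 to 16.3 CPM and FeAAD from 6.30 through 20.1 to 61.9 CPM. No treated library of either sex overlapped the controls of its sex, while treated groups with and without a lesion overlapped.

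The rise of Esm1 was 21.8-fold in FeAAD (log2 fold change 4.45 ± 0.45 SE, adjusted p = 3.54e-10 by edgeR) and 21.2-fold in MaAAD (4.40 ± 0.46, adjusted p = 1.37e-09). It was 7.75-fold in FeNonAD (2.96 ± 0.44, adjusted p = 1.60e-05) and 17.0-fold in MaNonAD (4.08 ± 0.49, adjusted p = 1.13e-06). The male estimate leaned on MaNonAD replicate 1, without which the log2 fold change was 2.74 with an adjusted p of 0.00300. Among females, AAD aortas had 2.81-fold more Esm1 than unlesioned treated ones (1.49 ± 0.41, adjusted p = 0.00782 by edgeR), and 7 of 9 FeAAD libraries lay above every FeNonAD library. Among males the same step was 1.25-fold (0.32 ± 0.51, adjusted p = 0.786), and the sex difference in this step did not pass (-1.17 ± 0.64, adjusted p = 1.000). The male step also rested on MaNonAD replicate 1, and without that library it was 1.66 on the log2 scale with an edgeR adjusted p of 0.0678.

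Angpt2, the context-dependent Tek ligand that loosens vessels for sprouting, was higher in AAD aortas of both sexes by a much smaller factor. Its level ran from 33.7 through a median of 44.7 to 59.8 CPM in MaCon and from 21.1 through 56.3 to 88.1 CPM in FeCon. MaAAD ran from 40.5 through 68.9 to 121 CPM and FeAAD from 48.4 through 105 to 147 CPM. The groups overlapped, with 4 of 7 MaAAD and 5 of 9 FeAAD libraries above every control of their sex. The fold was 1.68 in FeAAD (log2 fold change 0.74 ± 0.21, adjusted p = 0.00392 by edgeR) and 1.60 in MaAAD (0.68 ± 0.23, adjusted p = 0.0165). Unlesioned treated aortas did not pass. FeNonAD ran from 58.0 through 71.1 to 95.4 CPM (0.36 ± 0.22 against FeCon, adjusted p = 0.282), and the 4 MaNonAD libraries measured 104, 55.0, 49.3 and 39.9 CPM (0.43 ± 0.27 against MaCon, adjusted p = 0.566). The highest of these, MaNonAD replicate 1, was also the library with the highest Esm1 of its group, and without it the MaNonAD difference in Angpt2 was 0.06 (edgeR adjusted p = 0.982).

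The VEGF receptors Kdr and Flt1 did not pass in any comparison. Kdr, the main signalling receptor of VEGF-A, ran from 9.89 through a median of 20.3 to 53.9 CPM in MaCon and from 16.0 through 28.1 to 49.5 CPM in FeCon. Its range overlapped these in MaAAD (13.5, 26.9 and 40.1 CPM as lowest, median and highest) and in FeAAD (12.7, 27.5 and 57.7 CPM). The log2 fold change was 0.01 ± 0.27 in FeAAD (adjusted p = 0.970 by edgeR) and 0.17 ± 0.29 in MaAAD (adjusted p = 0.692). A change was thus not shown, and the size of change that could have been detected was not computed. Flt1, which binds VEGF-A tightly and also exists as a soluble decoy, differed by 0.01 ± 0.15 in FeAAD (adjusted p = 0.961) and by 0.32 ± 0.16 in MaAAD (adjusted p = 0.130). Its levels ran from 21.0 to 56.1 CPM in MaCon, from 27.2 to 54.3 in MaAAD, from 28.0 to 53.2 in FeCon and from 23.1 to 64.3 in FeAAD, so the ranges overlapped in both sexes. In MaCon the top of the range was replicate 2 alone, with the second highest library at 36.5 CPM, and 4 of 7 MaAAD libraries lay between 46.7 and 54.3 CPM.

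Tie1 passed in both sexes and Tek in neither, although the difference between the 2 receptors was not itself tested. Tie1 ran from 50.8 through a median of 61.0 to 77.0 CPM in MaCon and from 67.3 through 84.3 to 105 CPM in MaAAD, where 5 of 7 libraries lay above every control. In females it ran from 45.7 through 53.9 to 64.1 CPM in FeCon and from 42.1 through 70.8 to 102 CPM in FeAAD, where 7 of 9 libraries lay above every control and FeAAD replicates 5 and 9 lay below every control. Tie1 rose by 0.50 ± 0.13 on the log2 scale in MaAAD (adjusted p = 0.00213 by edgeR) and by 0.44 ± 0.12 in FeAAD (adjusted p = 0.00280). The 4 MaNonAD libraries measured 74.9, 80.5, 77.7 and 81.2 CPM, in the upper range of the controls or above it, yet the difference did not pass (0.36 ± 0.15, adjusted p = 0.310). Tek, which binds the angiopoietins directly, differed by -0.07 ± 0.20 in MaAAD (adjusted p = 0.811) and by -0.00 ± 0.18 in FeAAD (adjusted p = 0.986). Its level ran from 27.1 to 58.2 CPM in MaCon and from 23.3 to 57.0 in MaAAD, and from 28.0 to 46.8 in FeCon and from 14.6 to 59.3 in FeAAD.

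Pecam1, the junction receptor that also sits on platelets and leukocytes, was lower in treated females. It ran from 262 through a median of 447 to 589 CPM in FeCon, from 219 through 286 to 423 CPM in FeNonAD and from 120 through 299 to 448 CPM in FeAAD. None of the 8 FeNonAD libraries and 1 of the 9 FeAAD libraries exceeded the FeCon median. Pecam1 was 1.63-fold lower in FeAAD (log2 fold change -0.70 ± 0.19, adjusted p = 0.00198 by edgeR) and 1.52-fold lower in FeNonAD (-0.60 ± 0.19, adjusted p = 0.0287). The FeAAD difference was -0.49 with an adjusted p of 0.0209 without FeAAD replicates 5 and 9, the lowest FeAAD libraries for Pecam1. The FeNonAD difference was -0.55 with an adjusted p of 0.0634 without FeNonAD replicate 8, the lowest FeNonAD library. In males Pecam1 ran from 220 through 367 to 537 CPM in MaCon and from 209 through 307 to 506 CPM in MaAAD, with 305, 427, 384 and 464 CPM in the MaNonAD libraries. The male differences were -0.07 ± 0.20 in MaAAD (adjusted p = 0.824) and 0.14 ± 0.24 in MaNonAD (adjusted p = 0.873). The sexes were not shown to differ, since the test of the sex difference gave 0.64 ± 0.27 for AAD (adjusted p = 0.235) and 0.75 ± 0.30 for NonAD (adjusted p = 0.278).

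Cdh5, the adhesion protein of endothelial adherens junctions, went the other way from Pecam1 in FeAAD. It ran from 44.2 through a median of 57.9 to 71.9 CPM in FeCon and from 37.3 through 66.9 to 128 CPM in FeAAD (log2 fold change 0.42 ± 0.15, adjusted p = 0.0258 by edgeR). In males it ran from 39.9 through 62.8 to 86.4 CPM in MaCon and from 64.2 through 89.1 to 135 CPM in MaAAD, where 5 of 7 libraries lay above every control (0.57 ± 0.16, adjusted p = 0.00544). MaNonAD libraries measured 82.0, 76.8, 86.2 and 89.2 CPM (0.43 ± 0.20, adjusted p = 0.340), and FeNonAD ran from 48.2 through 55.2 to 74.3 CPM (0.05 ± 0.16, adjusted p = 0.869). The female call was near the threshold, with an adjusted p of 0.0611 when only FeAAD and FeCon were fitted.

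Plvap rose in AAD aortas of both sexes. It ran from 20.8 through a median of 32.3 to 49.2 CPM in MaCon and from 41.5 through 46.6 to 73.5 CPM in MaAAD, so that all 7 MaAAD libraries lay above the MaCon median (log2 fold change 0.59 ± 0.20, adjusted p = 0.0161 by edgeR). In females it ran from 20.3 through 28.9 to 48.8 CPM in FeCon, from 21.9 through 30.6 to 44.1 CPM in FeNonAD and from 27.7 through 40.4 to 64.8 CPM in FeAAD (0.49 ± 0.19 for FeAAD against FeCon, adjusted p = 0.0298). FeAAD replicate 5, the library with the highest macrophage sum, was the highest for Plvap, and without it the difference was 0.41 with an adjusted p of 0.0823. When only FeAAD and FeCon were fitted it was 0.50 with an adjusted p of 0.0534. Against FeNonAD, Plvap differed in FeAAD by 0.53 ± 0.20 (adjusted p = 0.0520 by edgeR), just short of the threshold.

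Vwf, the platelet-tethering granule protein, did not pass in any comparison and had the widest span after Esm1 in FeAAD. Its libraries spanned 9.63-fold, from 25.0 and 36.4 CPM in replicates 9 and 5 through a median of 128 to 241 CPM, whereas FeCon ran from 131 through 185 to 271 CPM. The log2 fold change in FeAAD was -0.53 ± 0.26 (adjusted p = 0.0959 by edgeR), and -0.23 with an adjusted p of 0.409 without those replicates. MaAAD ran from 91.2 through 165 to 254 CPM against 113 through 158 to 224 CPM in MaCon (0.03 ± 0.28, adjusted p = 0.948).

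Between the sexes none of the 10 genes passed by edgeR. This held for controls (14.3% of all genes passed, the lowest member being Flt1 with an adjusted p of 0.0900), for unlesioned treated aortas (0.0624% of all genes) and for AAD aortas (0.0901%). By unadjusted p under 0.05 the counts were 1, 3 and 0 of 10, beside 29.1%, 6.47% and 2.22% of all genes. The sex difference in the response to BAPN without a lesion (0.416% of all genes), in the response with a lesion (1.34%) and in the step from one to the other (0%) likewise passed for 0 of the 10 genes, with 2, 1 and 0 at an unadjusted p under 0.05 (12.1%, 15.4% and 1.04% of all genes), and DESeq2 also called 0 in all 6 of these tests. In unlesioned treated aortas the largest differences, male minus female, were in Esm1 (1.12 ± 0.49) and Cdh5 (0.50 ± 0.20), each with an edgeR adjusted p of 0.720.

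To see whether a gene moved by more than the endothelium as a whole, its log2(CPM + 1) was set against the mean of 22 other pan-endothelial genes in the same library. Of 60 such comparisons, 9 passed in a two-sided exact permutation test after adjustment over the 60. Esm1 lay below their mean on average in every group, and it came nearer to it after BAPN. Its relative level was -3.44 in FeCon and -0.16 in FeAAD, a rise of 3.28 (exact permutation adjusted p = 0.000650), and -3.44 in MaCon and -0.38 in MaAAD, a rise of 3.06 (adjusted p = 0.00103, exact permutation). The relative rise was 2.09 in FeNonAD (exact permutation adjusted p = 0.000686) and 2.45 in MaNonAD (exact permutation adjusted p = 0.00810). The added 1 shrinks rises from such low control levels, so their sizes cannot be set against the edgeR fold changes. Between lesioned and unlesioned treated aortas Esm1 did not pass in this test, with 1.19 in females (exact permutation adjusted p = 0.0617) and 0.61 in males (0.665). Tie1 rose relative to them by 0.30 in FeAAD, 0.22 in MaAAD and 0.24 in FeNonAD (exact permutation adjusted p = 0.0282, 0.00810 and 0.00434). Its own log2 fold change in FeNonAD did not pass (0.21 ± 0.13, edgeR adjusted p = 0.268). Pecam1 fell relative to them, by 0.87 in FeAAD and by 0.56 in FeNonAD (exact permutation adjusted p = 0.00357 and 0.00434). For Cdh5 the relative differences were 0.26 in FeAAD and 0.30 in MaAAD (exact permutation adjusted p = 0.0988 and 0.0531), and for Angpt2 0.66 and 0.35 (exact permutation adjusted p = 0.0988 and 0.279).

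**Figure D3:**
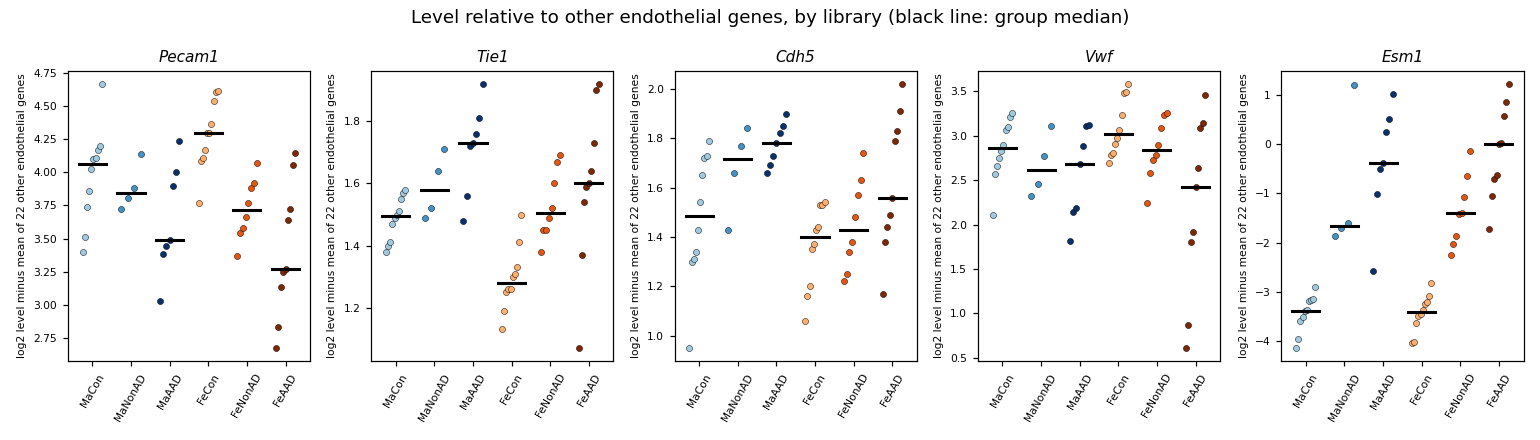
Level of 5 genes relative to other endothelial genes, as log2(CPM + 1) minus the mean of 22 pan-endothelial genes in the same library; points are libraries and black lines are group medians. The group medians of Pecam1 lie lower and those of Tie1 higher in FeNonAD and FeAAD than in FeCon, and Esm1 is higher in every treated library than in every control library.

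The reference genes also moved in part. Of the 22 other pan-endothelial genes, 2 were higher (23.8% of all tested genes) and 1 was lower (20.6%) in FeAAD. Ecscr differed by 0.68 ± 0.16 and Ushbp1 by 0.73 ± 0.29 (log2 fold change ± SE), and the lower gene was Nos3 (the endothelial nitric oxide synthase, -0.69 ± 0.17, edgeR adjusted p = 0.00118). In MaAAD 4 were higher and 0 lower (18.9% and 16.1% of all genes), among them Ecscr (0.61 ± 0.17) and Sox7 (0.57 ± 0.20). In FeNonAD, where 14.5% of all genes passed, 0 were higher and 2 lower, Nos3 (-0.60 ± 0.18, adjusted p = 0.0203) and Rasip1 (-0.47 ± 0.14), the latter named after its values were seen. Their median log2 fold change was 0.15 in FeAAD, 0.25 in MaAAD, -0.05 in FeNonAD and 0.23 in MaNonAD. Without FeAAD replicates 5 and 9 the count was 6 in FeAAD (37.5% of all genes passed in that fit) and 8 in MaAAD (37.7%), which is fitted together with the other groups, and it was 7 in MaAAD when MaAAD and MaCon were fitted alone (34.4%).

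Within groups, the 10 genes varied together in blocks from library to library. Deviations from the group mean of log2(CPM + 1) were compared over all 48 libraries, which share their totals and their tissue composition, so that these values describe the libraries. Pecam1, Tek, Tie1 and Vwf went together, with Pearson r between 0.73 and 0.83 for their 6 pairs, the highest for Tek with Vwf. Kdr went with Cdh5 (0.65) and with Flt1 (0.64) and not with Vwf (-0.03) or Pecam1 (-0.13). Cdh5 also went with Tie1 (0.68) and Tek (0.61). Plvap ran opposite to Flt1 (-0.51), and Esm1 went with no other gene of the set, its r ranging from -0.21 with Pecam1 to 0.12 with Angpt2.

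Set against the mean levels of 5 marker lists in the same way, 17 of the 50 relations passed after adjustment over the 50, by permutation within groups with 100000 resamples. Tie1 and Cdh5 followed the other pan-endothelial genes most closely (r = 0.83 and 0.80, rho = 0.87 and 0.76, each with an adjusted permutation p of 0.000167 from a raw p of 1.00e-05, the smallest the resamples can give). Without the 2 libraries farthest from the median of the score, r was 0.83 and 0.74. Kdr followed white and brown fat genes (r = 0.69, rho = 0.74, adjusted permutation p = 0.000167, r = 0.68 without 2 libraries) more than it followed the list of other endothelial genes (r = 0.50, rho = 0.48, adjusted permutation p = 0.00294), although the difference of these correlations was not tested. The single genes closest to Kdr lay above both lists. They were Rasgrp3 (r = 0.86), Pcdh12, Adgrl4 and Btnl9 (0.85 each) and the capillary gene Cd36 (0.84), named after their values were seen. Cdh5 (r = 0.55, rho = 0.53, adjusted permutation p = 0.00250, r = 0.48 without 2 libraries) and Flt1 (r = 0.51, rho = 0.50, adjusted permutation p = 0.00294, r = 0.47 without 2 libraries) followed fat genes as well. Flt1 ran opposite to platelet genes (r = -0.64, rho = -0.68, adjusted permutation p = 0.000250, r = -0.62 without 2 libraries), and so did Kdr (r = -0.43, rho = -0.46, adjusted permutation p = 0.00969, r = -0.40 without 2 libraries) and Angpt2 (r = -0.46, rho = -0.43, adjusted permutation p = 0.0158, r = -0.47 without 2 libraries). The relation of Angpt2 was r = -0.36 and no longer passed with a pseudocount of 0.1. Plvap followed macrophage genes (r = 0.43, rho = 0.44, adjusted permutation p = 0.0114, r = 0.41 without 2 libraries). With the other pan-endothelial genes Plvap (r = 0.21, adjusted permutation p = 0.315), Angpt2 (r = 0.19, 0.403) and Esm1 (r = -0.16, 0.460) did not pass. Pecam1, Cdh5, Kdr, Flt1, Tek, Tie1 and Vwf did. Smooth muscle genes ran with Pecam1 (r = 0.50, rho = 0.50, adjusted permutation p = 0.00921, r = 0.44 without 2 libraries), about as closely as the other endothelial genes did (r = 0.52, rho = 0.50, adjusted permutation p = 0.00580, r = 0.59 without 2 libraries). They ran opposite to Kdr (r = -0.50, rho = -0.49, adjusted permutation p = 0.00294, r = -0.56 without 2 libraries) and to Cdh5 (r = -0.44, rho = -0.45, adjusted permutation p = 0.0246, r = -0.44 without 2 libraries). The part of this in the group differences was not tested. Esm1 passed with none of the 5 lists, its lowest adjusted permutation p being 0.231.

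**Figure D4:**
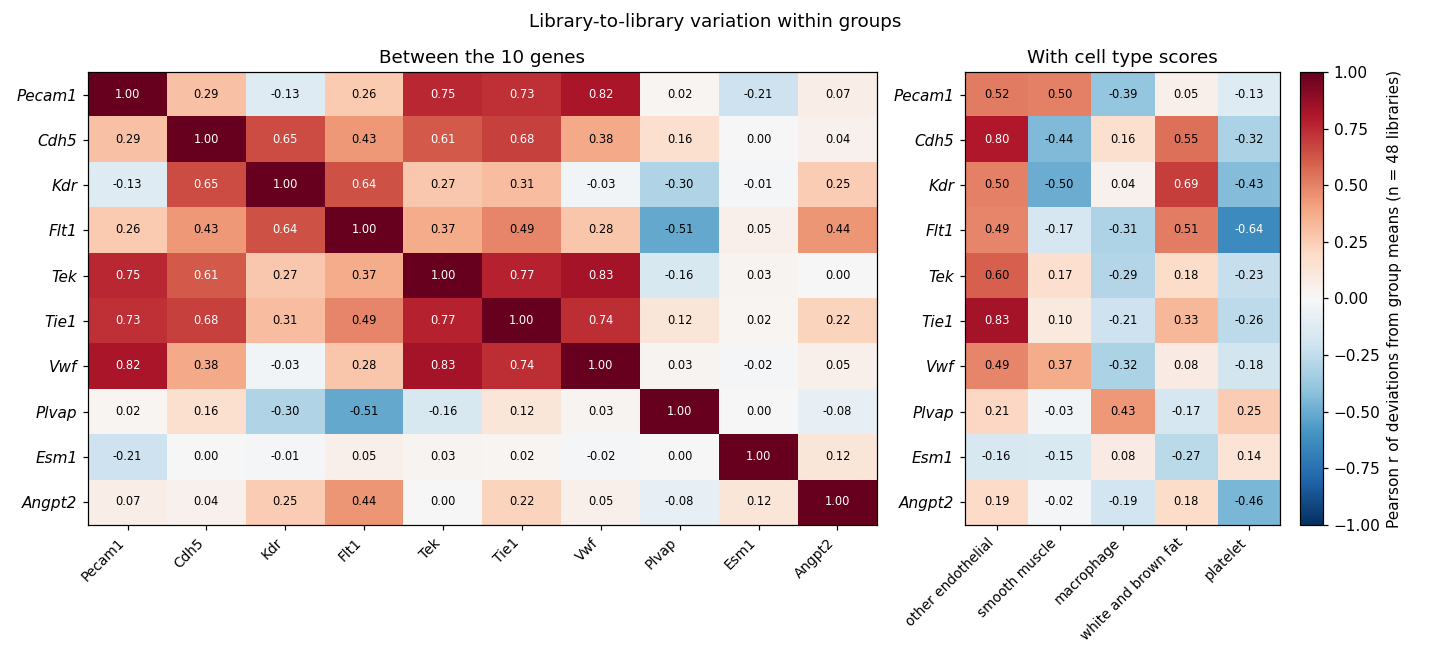
Pearson r of deviations from group means over 48 libraries, between the 10 genes (left) and between each gene and 5 marker lists (right), on a scale from -1 to 1. Pecam1, Tek, Tie1 and Vwf form a block with r from 0.73 to 0.83, and the values of Esm1 lie between -0.27 and 0.14.

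The genes whose deviations were most like those of a member were sought among 13710 genes over the same 48 libraries. For Cdh5 they were Afap1l1 (r = 0.84), Adgrf5 (0.79), St3gal6 (0.74), Prkch (0.72) and Ceacam1 (0.72). For Plvap they were Pcolce (0.77), Plscr3 (0.76), Ifitm2 (0.75), Ctsh (0.75) and S100a16 (0.74). For Angpt2 they were Ccn5 (0.73), Pdgfrb (0.70), Fmnl3 (0.70), Ifit3b (0.70) and C1qtnf7 (0.69). Esm1 had no close neighbour, the nearest being Chsy1 (0.61), Pfn2 (0.59), Lrp8 (0.58), Arsj (0.57) and Pbp2 (0.56).

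Of 17 further tip cell and sprouting genes, 8 were higher and 2 lower in FeAAD, where 23.8% of all tested genes were higher and 20.6% lower. In MaAAD 10 were higher and 3 lower, where 18.9% of all genes were higher and 16.1% lower. These same shares over all genes apply to the counts of the lists that follow. Apln, a peptide ligand made by tip cells, rose by 2.83 ± 0.43 on the log2 scale in FeAAD (0.820 ± 0.514 to 5.88 ± 5.00 CPM, SD, n = 10 and 9, edgeR adjusted p = 8.38e-07) and by 2.43 ± 0.43 in MaAAD (1.18 ± 0.610 to 6.41 ± 4.06 CPM, n = 10 and 7, edgeR adjusted p = 1.69e-05). Its receptor Aplnr rose by 2.35 ± 0.46 and 1.46 ± 0.47, and Cxcr4, a chemokine receptor that leukocytes carry as well, by 2.56 ± 0.39 and 1.63 ± 0.39. Adm, a vasodilator peptide, fell by 1.02 in FeAAD and by 0.63 in MaAAD, and Mcam, which smooth muscle also expresses, fell by 0.99 and by 1.06. In FeNonAD, where 14.5% of all genes passed, 2 of the 17 were higher, Apln (1.60 ± 0.44) and Nid2 (0.78 ± 0.15), and 1 was lower, Adm. In MaNonAD, where 0.624% of all genes passed, 1 was higher, Pdgfb (1.06 ± 0.21), and Nid2 and Pdgfb are named here after their values were seen. The median log2 fold change of the list with Esm1 and Angpt2 included was 0.68 in FeAAD and 0.95 in MaAAD.

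Of 8 VEGF ligands, receptors and co-receptors beside Kdr and Flt1, 3 were higher and 0 lower in FeAAD (23.8% and 20.6% of all genes), and 3 were higher and 1 lower in MaAAD (18.9% and 16.1%). The semaphorin and VEGF co-receptor Nrp2 rose by 0.78 ± 0.24 in FeAAD (17.0 ± 6.22 to 29.2 ± 11.7 CPM) and by 0.87 ± 0.25 in MaAAD (16.7 ± 8.93 to 30.5 ± 8.43 CPM), with edgeR adjusted p of 0.00648 and 0.00572. Nrp1 rose by 0.63 ± 0.12 and 0.47 ± 0.13, and also by 0.55 ± 0.13 in FeNonAD (edgeR adjusted p = 0.00244). With Nrp1, 1 of the 8 was higher and 1 was lower in FeNonAD, where 14.5% of all genes passed. Vegfd was higher in FeAAD (0.83 ± 0.25) and Vegfb lower in MaAAD (-0.80 ± 0.23). Vegfa differed by 0.45 ± 0.20 in FeAAD (adjusted p = 0.0662) and by -0.03 ± 0.22 in MaAAD (adjusted p = 0.934). Pgf, placental growth factor, a ligand of Flt1, was the 1 gene of this list whose response differed between the sexes. It stood at 17.4 ± 10.7 CPM in FeCon against 6.75 ± 1.47 in FeNonAD (-1.36 ± 0.31, adjusted p = 0.00256), and at 11.0 ± 5.35 CPM in FeAAD (-0.66 ± 0.29, adjusted p = 0.0609 by edgeR). In males it stood at 5.16 ± 2.14 CPM in MaCon against 9.36 ± 4.00 in MaNonAD (0.86 ± 0.37, adjusted p = 0.310 by edgeR) and 12.3 ± 4.13 in MaAAD (1.25 ± 0.31, adjusted p = 0.00146). The sexes thus lay further apart in controls than in AAD aortas. The sex difference was 1.92 ± 0.43 for AAD (edgeR adjusted p = 0.0148) and 2.22 ± 0.48 for NonAD (adjusted p = 0.0198), and the latter was 1.92 with an adjusted p of 0.106 without MaNonAD replicate 1. Nrp1 and Vegfa are named after their values were seen.

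In the angiopoietin system, Angpt4, a further ligand of Tek, fell by 0.57 in FeAAD (16.4 ± 4.80 to 11.0 ± 5.07 CPM, edgeR adjusted p = 0.0284) and by 0.99 in MaAAD (20.3 ± 5.34 to 10.2 ± 2.44 CPM, edgeR adjusted p = 0.000909). Dok2, an adaptor downstream of Tek that is also abundant in blood cells, rose by 1.40 ± 0.29 and 1.43 ± 0.30. Angpt1, the agonist ligand of Tek, was at 2.48 ± 1.08 CPM in FeCon and 4.87 ± 1.98 CPM in FeNonAD (0.98 ± 0.31, adjusted p = 0.0273 by edgeR, named after its values were seen). It did not pass in FeAAD, in MaNonAD or in MaAAD, where it differed by -0.08 ± 0.32. Of the 5 genes of this system beside Angpt2, Tek and Tie1, 1 was higher and 1 lower in AAD aortas of each sex, which is close to the shares over all genes (23.8% and 20.6% in FeAAD, 18.9% and 16.1% in MaAAD).

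Of 6 venous endothelial genes, 3 were higher and 0 lower in AAD aortas of each sex (23.8% of all genes were higher in FeAAD and 18.9% in MaAAD), namely Aplnr, the leukocyte-rolling receptor Selp (0.89 ± 0.22 in FeAAD and 1.50 ± 0.23 in MaAAD) and the adhesion receptor Vcam1 (1.51 ± 0.21 and 2.16 ± 0.22). Selp is also a platelet gene and Vcam1 is also made by smooth muscle and fibroblasts. Without a lesion, 1 of the 6 was higher in MaNonAD (0.624% of all genes passed) and 0 passed in FeNonAD (14.5%). Of 10 arterial genes, 2 were higher and 1 lower in FeAAD and 2 were higher and 0 lower in MaAAD, shares of genes higher that are close to those over all genes, with Gja4, the gap junction protein connexin of arterial endothelium, higher in both (0.90 ± 0.20 and 1.17 ± 0.21) and also in MaNonAD (1.10 ± 0.24, edgeR adjusted p = 0.0155). The 7 capillary genes had a median log2 fold change of 0.25 in FeAAD and 0.03 in MaAAD. Of 7 lymphatic genes, Pdpn was higher in both (1.59 ± 0.28 and 1.96 ± 0.30), a gene that fibroblasts and macrophages can also express, and Ccl21a, a chemokine of lymphatic endothelium, passed in FeAAD (1.90 ± 0.77, edgeR adjusted p = 0.0414) and differed by 1.83 ± 0.82 in MaAAD (adjusted p = 0.0781). The 7 lymphatic genes summed to a median of 112 CPM in FeAAD and 115 CPM in FeCon, with FeAAD replicate 6 highest at 434 CPM.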

How the data were processed

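Thoracic aortas of 48 mice were sequenced as strand-specific mRNA libraries, 1 per mouse. The authors deposited 1 table of estimated counts per gene, 4.99% of them not whole, and the submitters' processing notes name Bowtie2, RSEM 1.3.1 and GRCm39. Here the expected counts were rounded, genes filtered with filterByExpr (14431 of 18782 kept), scaled by TMM (factors 0.874 to 1.08) and tested in edgeR 4.0.16 (quasi-likelihood, robust, R 4.3.3) with all 6 groups in 1 fit and Benjamini-Hochberg adjustment. SEs are approximate. DESeq2 1.42.0 was an alternative. Levels relative to 22 other pan-endothelial genes used log2(CPM + 1) and exact permutation tests, adjusted over 60. Correlations used deviations from group means and 100000 permutations within groups, adjusted over 50. Scripts were tested on simulated data. The p-values measure the spread between mice, each taken as independent. The mice of a group shared a few cages, and the cage of each mouse is not in the labels, so cage could not be taken into account. Counting depth limits mainly Esm1 and other genes low in controls, and fold changes of such genes are uncertain.

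The members and lists were chosen with earlier results of these data known. Besides the 10 genes, each list contributed up to 2 highest and 2 lowest changes of AAD against Con per sex among genes that passed and averaged at least 10 counts per library, and the 5 closest genes were named for Cdh5, Plvap, Esm1 and Angpt2. Other genes are said to be named after their values were seen. Transcript lengths came from the GENCODE mouse annotation of GRCm38 and promoter sequences from RefSeq for GRCm38.p6.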

Additional observations from a re-analysis of the deposited data

Results flagged for a closer look

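Among the 10 genes in 6 groups, 60 sets of libraries were searched for a library far from the rest of its group, and 2 were found. By its nominal rate the rule flags about 1 in 20 such sets, and 2 of 60 does not exceed that. The rate was not measured here, where the sets share libraries. Esm1 in MaNonAD replicate 1 stood at 52.6 CPM, with the next highest of the 4 libraries at 8.02 CPM. Pecam1 in FeCon replicate 2 stood at 262 CPM, with the next lowest of the 10 libraries at 399 CPM.

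The response of Pgf, the placental growth factor, differed between the sexes by 2.22 on the log2 scale for NonAD against Con (male minus female, edgeR adjusted p = 0.0198) and by 1.92 for AAD against Con (edgeR adjusted p = 0.0148). Without MaNonAD replicate 1 the NonAD difference was 1.92 and no longer passed (edgeR adjusted p = 0.106).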

How the results depend on the processing

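The number of the 10 genes that passed stayed within 1.5 times its reported value, or equal to it, in 256 of 266 recomputed counts. Under the DEG rule of the study it was 1 in FeNonAD, 1 in FeAAD and 1 in MaAAD against controls. In FeAAD against FeNonAD it was 2 by DESeq2 (15.5% of all genes passed) and, chosen after seeing the data, 2 without FeAAD replicates 5 and 9 (7.80%). Over the fits leaving out a library it ranged from 1 to 3 there, with 3 without FeAAD replicate 9 (14.4% of all genes), and from 1 to 2 in FeNonAD against FeCon, and the relative test gave 0 to 1 in FeAAD against FeNonAD. Of 900 recomputed fold changes of the 10 genes, 866 kept direction and call, 7 lost and 7 gained the call, and 20 changed sign, none of which passed.

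The replicate numbers do not pair the animals, since in no pair of groups was every correlation of deviations over 0.1. With the number as a replicate block Cdh5 in FeAAD was 0.38 (edgeR adjusted p = 0.0508), Angpt2 in MaAAD 0.58 (0.0534) and Vwf in FeAAD -0.66 (0.0489). Signs changed with the block for Plvap in FeNonAD (0.08), Tek (-0.13) and Vwf (-0.18) in MaNonAD, Kdr (-0.05) and Flt1 (-0.02) in FeAAD, Vwf in MaAAD (-0.1), and Flt1 (0.02) and Vwf (0.08) in MaAAD against MaNonAD. Without FeAAD replicates 5 and 9, the lowest FeAAD libraries for these genes, FeAAD against FeNonAD gave Pecam1 0.12, Tek 0.01 and Vwf 0.05. Over fits leaving out a library, Kdr ranged from -0.03 to 0.08 in FeNonAD (0.01 without FeCon replicate 10) and from -0.06 to 0.13 in FeAAD against FeNonAD, or 0.16 with both FeAAD libraries left out. In MaNonAD Tek ranged from -0.14 to 0.12 and Vwf from -0.07 to 0.21. In MaAAD against MaNonAD Flt1 ranged from -0.11 to 0.07, Tek from -0.19 to 0.07 and Vwf from -0.19 to 0.1 (0.02 without MaNonAD replicate 2). The causes were not tested.

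In FeAAD against FeNonAD, Plvap (0.53, edgeR adjusted p = 0.0520 as reported) gained the call by DESeq2 (0.54, adjusted p = 0.0423) and in edgeR without MaNonAD replicate 1 (0.0492), FeNonAD replicate 8 (0.0249) or FeAAD replicate 9 (0.0455). Cdh5 gained it without FeAAD replicate 9, its lowest FeAAD library (0.46, edgeR adjusted p = 0.0396). Tie1 gained it without FeAAD replicates 5 and 9, its lowest FeAAD libraries (0.40, edgeR adjusted p = 0.0171). Over all genes, MaNonAD against MaCon gave 90 calls, 16 without MaNonAD replicate 1, 41 without replicate 3, 165 by DESeq2 and 274 with only those groups fitted. MaAAD against MaNonAD gave 59 calls by edgeR and 781 by DESeq2, 0 without the filter on low counts, with the block, with only those groups fitted or without MaNonAD replicate 2, 3 or 4 (1640 to 2950 at an unadjusted p under 0.05), and up to 1130 without FeAAD replicates 5 and 9.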
